A study of Homo sapiens with 8 samples.

Results

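Gefitinib-resistant HCC4006 cells were compared with the DMSO culture of the same line. Members were the columns of the HCC4006 table that carry the resistant or the DMSO name, which gave 4 libraries of the 8 in the series. The resistant culture (2 libraries, A and B) had been selected in gefitinib, an inhibitor of the EGFR kinase, and was kept at 3 µM. The DMSO culture (2 libraries, A and B) was passaged in the solvent alone. Per the labels, DNA fingerprints tied both cultures to the line. HCC4006 is a human lung adenocarcinoma line with an activating EGFR mutation. HCC827, the other line of the series, supplied 4 libraries for 1 comparison, 2 of gefitinib-resistant cells at 3 µM and 2 of DMSO cells. Each resistant group is 1 selected culture, so effects of the drug, of selection and of that one culture cannot be told apart. Nothing says that libraries A and B came from separate cultures, so a p-value here speaks of these libraries and their spread, which can be technical, and not of repeated selections. In bulk RNA, fewer cells of a type and less RNA per cell cannot be told apart.

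Epithelial cells are held together by adherens junctions, tight junctions and desmosomes, and sort proteins to an upper and a lower face with dedicated trafficking proteins. In an epithelial to mesenchymal transition (EMT), factors such as ZEB1 and ZEB2 bind E-box motifs in the promoters of these genes and repress them, while matrix and migration genes come on. Such a transition is a known state of lung cancer cells that outgrow EGFR inhibitors, and in that state other receptors, FGFR1 among them, can carry growth signals.

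Polyadenylated RNA was given as FPKM, a fragment count divided by transcript length and by the library's mapped fragments. The median of values above 0 lay between 53.6 and 59.0 in every library, so a further scaling by the authors is possible, and levels are best read relative to each other. Of 48405 rows, 16781 lay above 0 in all 4 libraries, and 16484 of these with a mean of at least 0.5 FPKM were tested. Another 1410 rows were listed at 0 in both DMSO libraries alone and 515 in both resistant libraries alone. Such a 0 can be a failed estimate, since 662 of the first kind averaged at least 50 FPKM in the resistant libraries and 87 of the second kind did so in DMSO. These rows get no fold change here. Depth is unknown, because the files hold no read counts.

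The DMSO libraries stood apart from each other. Over the tested rows, the log2 difference between libraries A and B had an SD of 0.459 in the resistant group and 1.06 in the DMSO group. Resistant A and B differed at least 2-fold in 3.81% of rows and DMSO A and B in 26.1%. The difference followed gene groups. Genes of the unfolded protein, ATF4 and heat shock responses, which cells switch on under stress of the endoplasmic reticulum or of amino acid supply, were higher in DMSO A than in DMSO B for 23 of 27 members (median log2 difference 2.23). All 32 tested cell cycle genes were lower in DMSO A than in DMSO B (median −1.96). Counts or medians against each DMSO library are given for several lists below, and other pooled values may rest on 1 of them.

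With limma and Benjamini-Hochberg adjustment over all 16484 rows, 88 rows were called at an adjusted p below 0.05, 0.534% of those tested. Of these, 17 rose in resistant cells (0.103%) and 71 fell (0.431%). All 88 changed at least 2-fold without overlap of the groups, with log2 fold changes between 2.10 and 5.70 for the rises and between −9.27 and −2.04 for the falls. By that descriptive rule alone, at least 2-fold with both resistant libraries on one side of both DMSO libraries, 1121 rows were higher (6.8%) and 1517 were lower (9.2%). The median log2 fold change of all tested rows was −0.04. List counts below are to be read beside these shares, and a short list without a call is no result about that list. All 88 calls were kept when either DMSO library was left out, but such a fit takes its spread from the narrower resistant pair alone and called 1510 or 2891 rows higher and 1956 or 3498 lower, so this says little about stability. Without resistant library A, and likewise without resistant library B, 4 were kept, and these were the same genes in both cases: TRIM29, CDH1, RAB25 and AP1M2. These fits take their spread from the wider DMSO pair alone. Of the 88 rows, 40 carried several names or shared a locus with another row, CDH1, TRIM29, ZEB2, CLDN7, CRB3 and EPCAM among them, so reads of neighbours or overlapping genes cannot be told apart there.

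**Figure D1:**
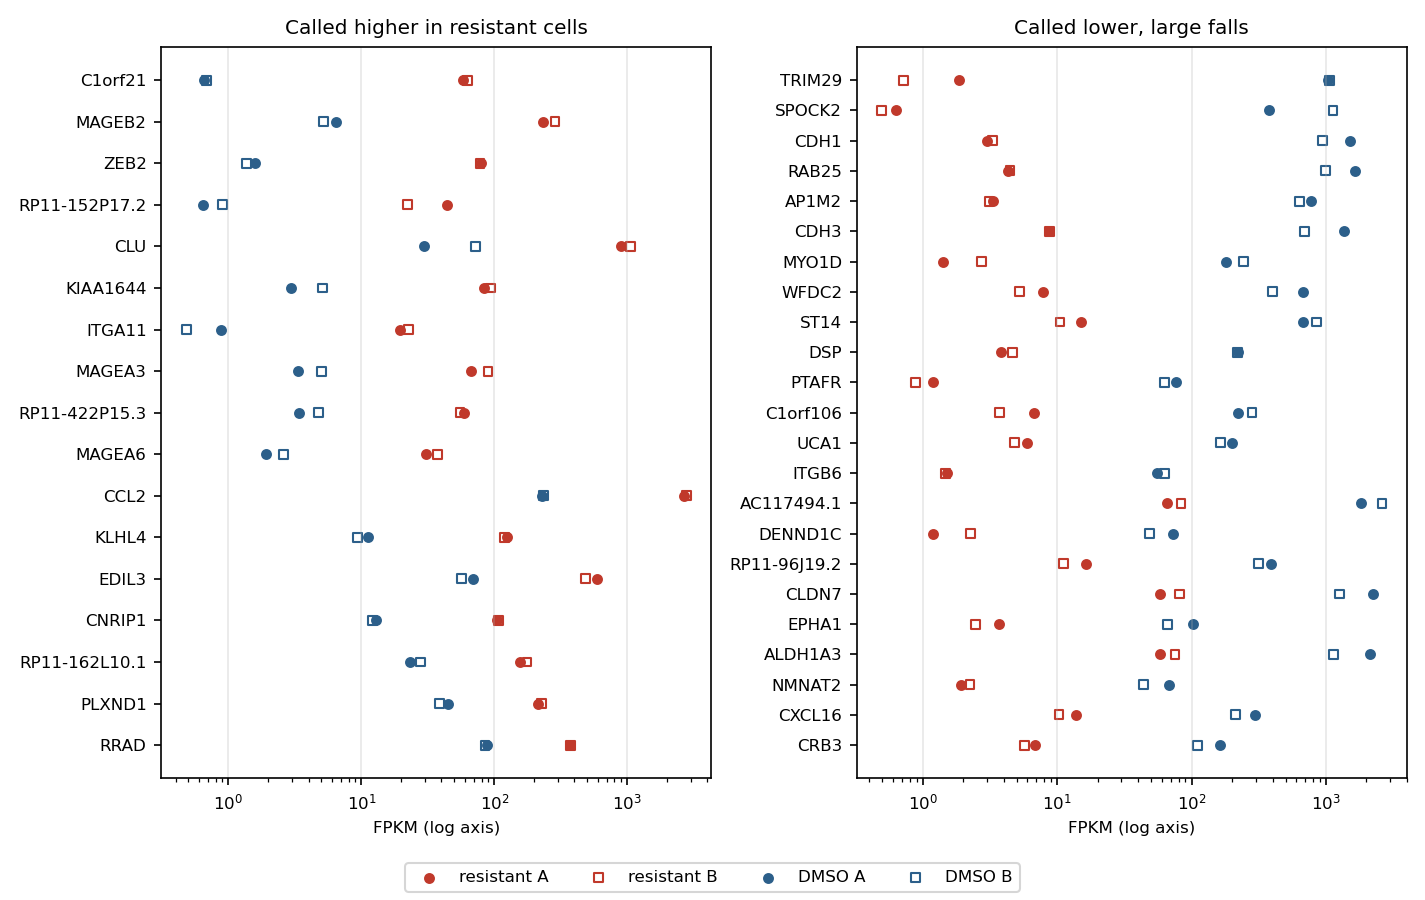
FPKM on a log axis in each library (resistant red, DMSO blue, A filled, B open) for the 17 rows called higher (left) and called-lower rows with large falls outside chromosome Y (right). Within each row the resistant points sit apart from the DMSO points, by more than the gap within either group.

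Genes of trafficking, polarity and the cell surface in epithelia were lower in resistant cells. RAB25 (hg19 chromosome 1, 156030950 to 156040295), a small GTPase that recycles vesicles to the upper cell face, measured 4.28 and 4.45 FPKM in the resistant libraries, against 1652 and 989.7 FPKM in the DMSO libraries. AP1M2 (chromosome 19, 10683346 to 10697991), the clathrin adaptor subunit of polarised cells, measured 3.35 and 3.11 FPKM in resistant and 772 and 637 FPKM in DMSO cells. Both genes were near the bottom of the range in both resistant libraries and abundant in both DMSO libraries. RAB25 fell by 8.04 on the log2 scale (SE 0.35, limma adjusted p = 0.0153) and AP1M2 fell by 7.55 (SE 0.29, adjusted p = 0.0153). ST14, the surface protease matriptase, measured 15.0 and 10.5 FPKM in resistant cells, against 672 and 847 FPKM in DMSO cells (log2 fold change −5.86, adjusted p = 0.0241). Of the 21 tested genes of epithelial trafficking, polarity and surface proteases, 10 fell by limma, none rose, and 20 were at least 2-fold lower without overlap. The median of the list was −3.28. The counts of 20 were the same against either DMSO library alone. The other called members were C1orf106, MAP7, MAL2, CDS1, MYO5B, SH2D3A and EPS8L2, with log2 fold changes between −5.50 and −2.37. PRSS8, the protease prostasin that ST14 activates, measured 7.51 and 7.48 FPKM in resistant and 565 and 181 FPKM in DMSO cells, with groups apart but an adjusted p of 0.0523. RBM47, an RNA-binding protein gene, was the member nearest to no difference, at 248 and 240.0 FPKM in resistant and 412 and 313 FPKM in DMSO cells. Listed at 0 in both resistant libraries were 6 further members, FXYD3 (879 and 603 FPKM in the DMSO libraries) and BSPRY (81.5 and 59.7 FPKM in DMSO) the highest of them. Against these, GPR56 (91.5 and 104 FPKM in resistant cells) and the row that joins LAD1 with TNNT2 (18.5 and 13.3 FPKM) were listed at 0 in both DMSO libraries.

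Promoters of 4 genes that fell are shown because the ZEB and SNAI repressors bind the E-box CAGGTG, which reads CACCTG on the other strand. The windows are RefSeq sequences on GRCh38.p14 of equal length around the start of the gene, 5′ to 3′ on the gene's strand, with each E-box in capitals. RAB25 lies at chr1:156060910-156061209 on the plus strand with 2 E-boxes, AP1M2 at chr19:10587263-10587562 on the minus strand with 3, CRB3 at chr19:6464021-6464320 on the plus strand with 5, and DSP at chr6:7541421-7541720 on the plus strand with 2.
RAB25: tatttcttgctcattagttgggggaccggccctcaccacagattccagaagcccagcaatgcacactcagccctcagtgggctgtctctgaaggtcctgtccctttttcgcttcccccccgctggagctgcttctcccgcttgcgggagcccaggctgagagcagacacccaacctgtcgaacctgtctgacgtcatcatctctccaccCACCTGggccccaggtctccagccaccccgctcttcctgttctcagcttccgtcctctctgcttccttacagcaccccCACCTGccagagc
AP1M2: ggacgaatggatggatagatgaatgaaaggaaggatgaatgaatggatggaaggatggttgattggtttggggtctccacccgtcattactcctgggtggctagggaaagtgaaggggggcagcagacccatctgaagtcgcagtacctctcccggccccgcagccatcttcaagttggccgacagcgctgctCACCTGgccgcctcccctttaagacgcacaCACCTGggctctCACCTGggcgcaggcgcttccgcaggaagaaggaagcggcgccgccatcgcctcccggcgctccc
CRB3: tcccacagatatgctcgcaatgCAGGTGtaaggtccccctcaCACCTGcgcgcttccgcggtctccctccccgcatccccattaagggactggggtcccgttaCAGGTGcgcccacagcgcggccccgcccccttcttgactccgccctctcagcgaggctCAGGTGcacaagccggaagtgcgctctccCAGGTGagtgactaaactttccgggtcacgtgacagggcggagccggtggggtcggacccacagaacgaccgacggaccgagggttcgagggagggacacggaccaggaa
DSP: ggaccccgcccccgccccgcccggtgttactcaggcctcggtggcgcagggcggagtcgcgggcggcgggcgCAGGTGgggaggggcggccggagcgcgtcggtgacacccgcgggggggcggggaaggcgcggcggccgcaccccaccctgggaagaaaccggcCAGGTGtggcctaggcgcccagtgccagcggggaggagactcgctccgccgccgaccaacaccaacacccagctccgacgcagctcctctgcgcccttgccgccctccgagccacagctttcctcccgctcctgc
These 4 were picked, after their values and sequences were seen, as called-lower genes with several E-boxes. In the AP1M2 window all 3 lie within 57 bases before the start, and in the CRB3 window the 5 spread between 228 and 60 bases before it. Of all 27305 RefSeq promoter windows, 20.6% held at least 1 such E-box on either strand and 3.47% at least 2. Of the 71 rows that fell, 32 matched a window, and 19 of those 32 held the motif. Since fewer than 80% matched, a comparison of the motif between the rows that fell and other rows is void. A match describes letters in the window and is no evidence of binding.

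Adherens junction genes, which tie the actin belts of neighbouring cells together, fell in 4 of 9 tested members and rose in none, with a list median of −2.05. CDH1, E-cadherin (hg19 chromosome 16, 68771127 to 68869444), measured 3.03 and 3.29 FPKM in resistant cells, against 1518 and 945 FPKM in DMSO cells, a log2 fold change of −8.36 (adjusted p = 0.0153). CDH3, P-cadherin, measured 8.65 and 8.77 FPKM in resistant cells, against 1352 and 687 FPKM in DMSO cells (log2 fold change −6.71, adjusted p = 0.0241). Both cadherins lay under 10 FPKM in both resistant libraries. JUP, plakoglobin, which links cadherins to the cytoskeleton, fell less, to 76.3 and 77.9 FPKM in resistant cells, against 764 and 799.8 FPKM in DMSO cells (log2 fold change −3.33, adjusted p = 0.0241). EPCAM, an epithelial adhesion protein, was the other called member (183 and 113 FPKM in resistant, 1529 and 2003 FPKM in DMSO cells). CTNNB1, beta-catenin, measured 1349 and 1265 FPKM in resistant and 581 and 942 FPKM in DMSO cells and was not called (log2 fold change 0.82, adjusted p = 0.297). Its groups did not overlap, and its direction was opposite to that of the cadherins it binds. CTNNA1, alpha-catenin, was listed at 0 in both DMSO libraries and at 2118 and 2584 FPKM in resistant cells.

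Tight junction genes, which seal the space between cells, fell in 3 of 13 tested members, and all 13 fold changes of tested members were negative (median −1.69). CLDN7, a claudin of the sealing strands, fell to 57.8 and 81.8 FPKM in resistant cells, against 2242 and 1261 FPKM in DMSO cells. CRB3, which sets the upper face of the cell, measured 6.88 and 5.69 FPKM in resistant and 164 and 111 FPKM in DMSO cells. MARVELD2, tricellulin of the corners where cells meet, measured 8.59 and 6.27 FPKM in resistant and 99.7 and 75.5 FPKM in DMSO cells. Log2 fold changes were −4.60, −4.32 and −3.48 for CLDN7, CRB3 and MARVELD2, with adjusted p-values of 0.0378, 0.0378 and 0.0491. The scaffold gene TJP1, whose protein also serves non-epithelial cells, had a log2 fold change of −0.31 and was not called. Of the members at 0 in 1 group, 4 ran the other way, at 0 in both DMSO libraries, and 1 was at 0 in both resistant libraries. These were CGN, cingulin of the junction's inner face, CXADR, a junctional adhesion receptor at 155 and 161 FPKM in resistant cells, and 2 rows that join a claudin with other genes. The row of CLDN4 measured 222 and 284 FPKM in resistant cells, and that of CLDN12 629.6 and 623 FPKM.

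Desmosome and hemidesmosome genes fell in 4 of 16 tested members (median −1.90), and 10 were at least 2-fold lower without overlap. TRIM29, a gene of stratified epithelia kept in this list, showed the largest fall among called rows, with 1.86 and 0.715 FPKM in resistant cells, against 1028 and 1059.9 FPKM in DMSO cells (log2 fold change −9.27, adjusted p = 0.0153). DSP, desmoplakin, which anchors keratin filaments to the desmosome, measured 3.81 and 4.62 FPKM in resistant and 220.1 and 219 FPKM in DMSO cells (log2 fold change −5.55, adjusted p = 0.0241). The DMSO libraries were nearly equal for DSP. ITGB4, the integrin of hemidesmosomes, and PPL, periplakin, were the other called members (−3.45 and −2.45). Against these, PLEC, DSC3, DST and the row of COL17A1 with a second name had log2 fold changes between −0.23 and 0.89 without a call. ITGA6, the partner of ITGB4, was listed at 0 in both DMSO libraries and at 519 and 571 FPKM in resistant cells.

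Among epithelial transcription and splicing factors, 1 of 8 tested members fell and 7 were at least 2-fold lower without overlap (median −2.08). The called gene was ESRP2, which directs epithelial exon choice, at 14.7 and 18.4 FPKM in resistant and 119.5 and 158 FPKM in DMSO cells (log2 fold change −3.03, adjusted p = 0.0491). Its relative ESRP1 was listed at 1.45 and 0 FPKM in the resistant libraries, against 1136 and 361 FPKM in DMSO. GRHL2, a regulator of epithelial identity, was listed at 0 in both resistant libraries, against 134 and 138 FPKM in DMSO. FOXA1, a lung endoderm factor, measured 92.9 and 124 FPKM in resistant and 159.7 and 191 FPKM in DMSO cells and was not called. KRT19, a keratin of simple epithelia, fell to 486 and 515 FPKM in resistant cells, against 4738 and 7263 FPKM in DMSO cells (log2 fold change −3.55, adjusted p = 0.0378). KRT8 kept 1100.0 and 975 FPKM in resistant cells, against 1596 and 5509.7 FPKM in DMSO cells, with no call. Of the 12 markers set for lung epithelium and adenocarcinoma, 7 were tested, and all 7 were at least 2-fold lower without overlap. Of the other rows found, 2 were listed at 0 in both resistant libraries. The row of CLDN4 was listed at 0 in both DMSO libraries, and KRT7 in all 4. All rows found, those at 0 in a group included, summed to 2626 and 2582 FPKM in the resistant libraries. In the DMSO libraries they summed to 16680 and 20980 FPKM. The tested markers were present in the DMSO culture, and the resistant culture carried them at lower levels, with CDH1 nearly absent and KRT8 and KRT19 still abundant.

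**Figure D2:**
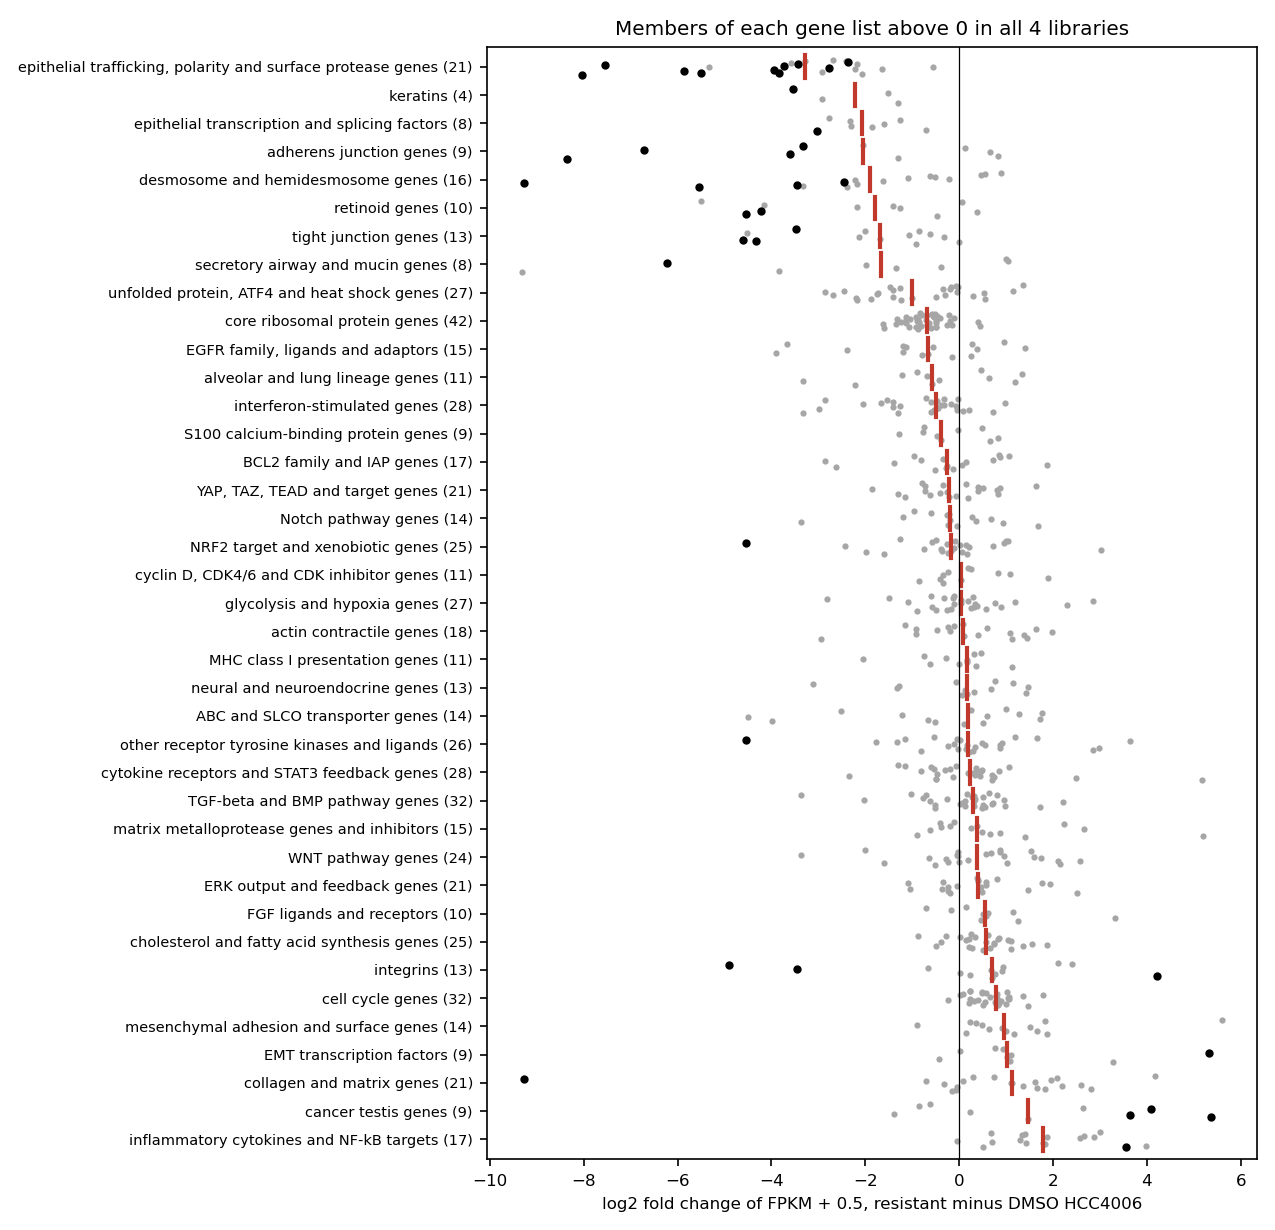
Log2 fold change (resistant minus DMSO) of each member above 0 in all 4 libraries, by gene list, with the number of members in brackets, called members in black and list medians as red bars. Epithelial lists lie at the top with medians down to −3.28, and cytokines, cancer testis and matrix genes at the bottom with medians up to 1.79.

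Secretory airway and retinoid genes held 3 called falls. WFDC2, a secreted protease inhibitor of the airway, fell to 7.89 and 5.22 FPKM in resistant cells, against 677 and 401 FPKM in DMSO cells (log2 fold change −6.23, adjusted p = 0.0241). It was the called member among 8 tested secretory and mucin genes (median −1.66). Without a fold change, 10 untested members were listed at 0 in both resistant libraries and 1 in both DMSO libraries. SLPI and the row that joins MUC1 with KRTCAP2 were among the 10. Of the 8 tested, 5 were at least 2-fold lower without overlap and 2 higher. The median was −2.24 with 6 lower and 2 higher against DMSO A alone, and −0.78 with 4 lower and none higher against DMSO B alone. AGR2, which folds mucins, measured 10.7 and 2.10 FPKM in resistant and 9534 and 1219 FPKM in DMSO cells, and the width of both groups left it uncalled (adjusted p = 0.0657). LCN2, an iron-binding secreted protein, measured 544 and 522 FPKM in resistant and 39235 and 1499 FPKM in DMSO cells. DMSO A was the high library here. Of 10 tested retinoid genes, 2 fell and 7 were at least 2-fold lower without overlap (median −1.79). ALDH1A3, which makes retinoic acid, measured 58.4 and 75.3 FPKM in resistant and 2108 and 1136 FPKM in DMSO cells (log2 fold change −4.53, adjusted p = 0.0378). RARRES3, a gene induced by retinoids, measured 38.6 and 47.5 FPKM in resistant and 1105 and 598 FPKM in DMSO cells (log2 fold change −4.23, adjusted p = 0.0412). STRA6, the retinol uptake receptor, and DHRS3, which turns retinal back to retinol, had log2 fold changes of −5.51 and −4.16 with adjusted p-values of 0.075 and 0.0731. The nuclear receptors RXRA and RXRB had 0.37 and 0.06, without a call. Against DMSO A and DMSO B alone, 7 and 6 of the 10 retinoid genes were at least 2-fold lower.

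Among EMT transcription factors, ZEB2 rose and 5 of 9 tested members were at least 2-fold higher without overlap (median 1.03). ZEB2 (hg19 chromosome 2, 145145567 to 145278683) measured 79.4 and 78.0 FPKM in resistant cells, against 1.58 and 1.36 FPKM in DMSO cells (log2 fold change 5.33, adjusted p = 0.0241). ZEB1 measured 56.3 and 58.3 FPKM in resistant and 3.93 and 7.44 FPKM in DMSO cells (log2 fold change 3.29, adjusted p = 0.0686). Both resistant libraries were far above both DMSO libraries for the 2 ZEB genes, and the wider DMSO pair of ZEB1 left it above the threshold. TWIST1 had 148 and 176 FPKM in resistant and 78.0 and 72.0 FPKM in DMSO cells without a call. SNAI1 and SNAI2, the SNAIL and SLUG repressors, overlapped between the groups, with log2 fold changes of −0.43 and 0.93.

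No tested gene of the 14 for mesenchymal adhesion and surface proteins was called, while 6 were at least 2-fold higher without overlap (median 0.95). VIM, vimentin, measured 9074 and 9193 FPKM in resistant and 2036 and 3292 FPKM in DMSO cells (log2 fold change 1.82, adjusted p = 0.116), so its transcript was already abundant in the DMSO culture. CDH2, N-cadherin, likewise measured 762 and 771 FPKM in resistant and 326 and 355 FPKM in DMSO cells (log2 fold change 1.17, adjusted p = 0.115). MME, the surface peptidase neprilysin, measured 209.6 and 226 FPKM in resistant and 1.90 and 7.94 FPKM in DMSO cells (log2 fold change 5.60, adjusted p = 0.0585). CD44, a hyaluronan receptor, was listed at 0 in both resistant libraries, against 8578 and 13596 FPKM in DMSO. Such a 0 can be a failed estimate, so CD44 gets no direction here. The median of this list was 1.27 against DMSO A alone and 0.43 against DMSO B alone.

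Collagen and matrix genes held 11 of 21 tested members at least 2-fold higher without overlap (median 1.13), none of them called. COL12A1, a collagen that bridges fibrils, measured 297 and 444 FPKM in resistant and 11.2 and 34.2 FPKM in DMSO cells (log2 fold change 4.17, adjusted p = 0.0731). COL6A1 and FBN1, which make microfibrils, had log2 fold changes of 2.80 and 2.08. The proteoglycan gene SPOCK2 went the other way and fell to 0.628 and 0.495 FPKM in resistant cells, against 377 and 1126 FPKM in DMSO cells (log2 fold change −9.27, adjusted p = 0.0241). Its relative SPOCK1 measured 1211 and 1363 FPKM in resistant and 195 and 664 FPKM in DMSO cells, higher in both resistant libraries without a call. COL1A1 and COL4A1 overlapped between the groups.

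Of 13 tested integrins, receptors for the matrix, 1 rose and 2 fell, ITGB4 named above and ITGB6. ITGB6, of the epithelial receptor that activates latent TGF-beta, fell to 1.52 and 1.47 FPKM in resistant cells, against 55.7 and 62.6 FPKM in DMSO cells (log2 fold change −4.90, adjusted p = 0.0301). ITGA11, a collagen receptor of mesenchymal cells, rose to 19.7 and 22.5 FPKM in resistant cells, against 0.885 and 0.481 FPKM in DMSO cells (log2 fold change 4.21, adjusted p = 0.0451). ITGB1, the beta chain that pairs with ITGA11, measured 11379.8 and 10162 FPKM in resistant and 11888 and 9549 FPKM in DMSO cells, with overlap. Of 15 tested matrix metalloprotease genes and inhibitors, none was called and 4 were at least 2-fold higher without overlap. ADAMTS1, which cuts proteoglycans, measured 674 and 490.2 FPKM in resistant and 3.52 and 61.0 FPKM in DMSO cells (log2 fold change 5.19, adjusted p = 0.167). MMP2 measured 424 and 480.2 FPKM in resistant and 197 and 145 FPKM in DMSO cells. Among 18 actin and contractile genes none was called. MYLK, the myosin light chain kinase, had a log2 fold change of 1.99 and ACTA2, smooth muscle actin, −2.95.

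FGF ligands and receptors, the pathway the title of the study names, held no called gene among 10 tested. With 0.534% of all rows called, this count says nothing about the pathway. Of the 10, 2 were at least 2-fold higher without overlap (median 0.55), beside 6.8% of all rows. Against DMSO A alone the median was 0.67 with 4 higher and none lower, and against DMSO B alone 0.14 with 2 higher and 1 lower. The 2 genes were FGFR1, at 345 and 428 FPKM in resistant and 21.1 and 68.1 FPKM in DMSO cells (adjusted p = 0.106), and the row that joins FGF2 with AC021205.1, at 275 and 200.2 FPKM in resistant and 92.4 and 103 FPKM in DMSO cells (adjusted p = 0.14). FGFR3 and FGFR4 did not overlap between the groups but differed less than 2-fold, at log2 fold changes of −0.72 and 0.52. FGFR2, the receptor form of epithelia, was listed at 0 in both resistant libraries, against 17.5 and 5.78 FPKM in DMSO. SDC1, SDC4 and GPC1, heparan sulphate carriers that hold FGF at the receptor, lay between 0.15 and 0.60.

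Of 15 tested genes for the EGFR family, its ligands and adaptors, none was called, 6 were at least 2-fold lower without overlap and 1 was higher (median −0.66). Against DMSO A and DMSO B alone the medians were −0.78 and −0.28, with 6 lower each. EGFR itself measured 770.5 and 752 FPKM in resistant and 1079 and 662 FPKM in DMSO cells, so both resistant libraries lay between the DMSO libraries (log2 fold change −0.15, which became 0.20 without DMSO A). ERBB3, the partner that couples EGFR to PI3 kinase, measured 6.90 and 13.6 FPKM in resistant and 215 and 109.8 FPKM in DMSO cells (adjusted p = 0.0696). The ligand gene AREG measured 12.0 and 12.2 FPKM in resistant and 367 and 69.0 FPKM in DMSO cells (adjusted p = 0.142). GRB7, HBEGF, TGFA and ERBB2 were the other members of the 6. NRG1, the ligand of ERBB3, ran against them at 96.4 and 105.95 FPKM in resistant and 32.1 and 45.0 FPKM in DMSO cells (adjusted p = 0.144).

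Among 26 other tested receptor tyrosine kinases and ligands, EPHA1 fell and no gene rose. EPHA1, an ephrin receptor of epithelia, measured 3.66 and 2.46 FPKM in resistant and 102 and 65.9 FPKM in DMSO cells (log2 fold change −4.55, adjusted p = 0.0428). VEGFC, the growth factor for lymph vessels, measured 260.0 and 242 FPKM in resistant and 24.7 and 47.9 FPKM in DMSO cells (log2 fold change 2.85, adjusted p = 0.0729). The row that names PDGFRB with a second gene had a log2 fold change of 3.63 (adjusted p = 0.0793), and the row that joins PDGFRA with FIP1L1 was listed at 0 in DMSO and at 535 and 509.7 FPKM in the resistant libraries. MET and AXL had 0.21 and 0.86 without a call. Of 21 tested ERK output and feedback genes none was called. JUN measured 276 and 238 FPKM in resistant and 77.6 and 72.5 FPKM in DMSO cells (adjusted p = 0.0729). DUSP6, SPRY2 and ETV4, which read out ERK activity, had log2 fold changes of −0.36, 0.48 and 0.40.

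Inflammatory cytokines and NF-kB targets had the highest list median, 1.79 over 17 tested members. CCL2, which draws monocytes, was the called gene and rose to 2645 and 2783 FPKM in resistant cells, against 227 and 233 FPKM in DMSO cells (log2 fold change 3.56, SE 0.22, adjusted p = 0.0241). Both groups were tight for CCL2. A further 11 genes were at least 2-fold higher without overlap. CSF1, a growth factor of macrophages, measured 549.7 and 624 FPKM in resistant and 144 and 36.9 FPKM in DMSO cells. CXCL1, a chemokine for neutrophils, measured 105.54 and 118 FPKM in resistant and 23.4 and 9.26 FPKM in DMSO cells. BIRC3, an NF-kB target that blocks cell death, measured 367 and 437 FPKM in resistant and 127 and 94.0 FPKM in DMSO cells (adjusted p = 0.075). DMSO A was above DMSO B for 13 of the 17 members. The list counted 12 genes at least 2-fold higher against DMSO A alone and 13 against DMSO B alone, with medians of 1.36 and 2.29. CXCL16, a chemokine outside that list, fell to 13.7 and 10.3 FPKM in resistant cells, against 296 and 211 FPKM in DMSO cells (log2 fold change −4.34, adjusted p = 0.0371).

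Cytokine receptors and STAT3 feedback genes held no call among 28 tested. IL7R, the interleukin-7 receptor, measured 117 and 88.3 FPKM in resistant and 0.898 and 5.20 FPKM in DMSO cells (log2 fold change 5.18, adjusted p = 0.0741). TNFRSF9, a receptor of activated lymphocytes, measured 35.1 and 44.5 FPKM in resistant and 7.04 and 6.16 FPKM in DMSO cells (adjusted p = 0.0741). Of 28 tested interferon-stimulated genes none was called, 10 were at least 2-fold lower without overlap and none higher, and the median was −0.50. OAS1 and ISG15, which act against viruses, had log2 fold changes of −3.33 and −1.67 with adjusted p-values of 0.0738 and 0.0705. IFIT5, of the same list, had −0.03. MHC class I presentation genes could be tested for 11 of 19 members, because 7 were listed at 0 in both DMSO libraries, TAP1 among them. B2M, the shared light chain, measured 17061 and 15810.4 FPKM in resistant and 14601 and 11811 FPKM in DMSO cells, without a call.

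Cancer testis genes, which are silent in most adult tissues outside the germ line, rose in 3 of 9 tested members, with a list median of 1.47. MAGEB2 (hg19 chromosome X, 30233676 to 30238206) measured 232 and 286 FPKM in resistant cells, against 6.49 and 5.15 FPKM in DMSO cells (log2 fold change 5.36, adjusted p = 0.0241). MAGEA3 measured 66.8 and 89.6 FPKM in resistant and 3.35 and 5.00 FPKM in DMSO cells, and MAGEA6 30.5 and 37.2 FPKM in resistant and 1.93 and 2.60 FPKM in DMSO cells. MAGEA3 and MAGEA6 are near-identical copies that can share reads, so they count as 1 uncertain signal (4.08 and 3.64, adjusted p 0.0437 and 0.0491). The row that names MAGEA12 with a second gene measured 121 and 117 FPKM in resistant and 85.1 and 120.4 FPKM in DMSO cells, with overlap. MAGEB6 was listed at 0 in DMSO and at 72.5 and 74.5 FPKM in the resistant libraries.

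The remaining rises belonged to no list. C1orf21 had the largest, with 58.0 and 62.8 FPKM in resistant cells, against 0.658 and 0.687 FPKM in DMSO cells (log2 fold change 5.70, adjusted p = 0.0241). In HCC827 its row was listed at 0 in both resistant libraries, against 67.9 and 52 FPKM in DMSO. The rows of C1orf21, EDIL3, PLXND1, RP11-152P17.2, MYO1D and UCA1 in this paragraph shared a locus with another row. CLU, clusterin, a secreted chaperone, measured 895 and 1049.6 FPKM in resistant and 29.8 and 71.6 FPKM in DMSO cells (log2 fold change 4.38, adjusted p = 0.0491). EDIL3, a matrix ligand of integrins, measured 590.3 and 482 FPKM in resistant and 68.7 and 56.6 FPKM in DMSO cells (log2 fold change 3.09, adjusted p = 0.0378). PLXND1, a semaphorin receptor, and RRAD, a Ras-related GTPase, had the smallest called rises, 2.39 and 2.10. RRAD measured 373 and 376 FPKM in resistant and 88.7 and 85.1 FPKM in DMSO cells. KIAA1644, KLHL4, CNRIP1 and 3 transcripts with clone names (RP11-152P17.2, RP11-422P15.3 and RP11-162L10.1) made up the rest, between 2.67 and 4.64. Among falls outside the lists, MYO1D, a motor protein, had −6.40, PTAFR, the receptor of platelet-activating factor, −5.51, and UCA1, a long noncoding RNA first described in bladder cancer, −4.96. DENND1C shares its locus with CRB3, and its fall (−4.80) cannot be told apart from that of CRB3.

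Cell cycle, stress response and lipid synthesis genes gave different pictures against each DMSO library. None of 32 cell cycle genes was called (median 0.78). CCNA2, a cyclin of S and G2 phase, measured 426 and 515 FPKM in resistant and 70.4 and 404 FPKM in DMSO cells. E2F1, which starts S phase, measured 189.6 and 131 FPKM in resistant and 11.9 and 167 FPKM in DMSO cells. For both, DMSO A was lowest and DMSO B close to the resistant libraries. Against DMSO A alone 28 of 32 were at least 2-fold higher and none lower (median 1.62), and against DMSO B alone none was higher and 3 were lower (median −0.27). Of 25 tested cholesterol and fatty acid synthesis genes, 14 were at least 2-fold higher and 1 lower against DMSO A alone (median 1.403), while 1 was higher and 2 lower against DMSO B alone (median −0.33).

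The 27 unfolded protein, ATF4 and heat shock genes held no call. HSPA5, the main chaperone of the endoplasmic reticulum, measured 1198 and 1102 FPKM in resistant and 23576 and 1146 FPKM in DMSO cells. DDIT3, the stress factor CHOP, measured 94.9 and 76.0 FPKM in resistant and 4773 and 80.1 FPKM in DMSO cells. DMSO A was the high library for both, and DMSO B lay within or near the range of the resistant libraries. Against DMSO A alone 3 of 27 were at least 2-fold higher and 16 lower (median −1.79), and against DMSO B alone none was higher and none lower (median 0.10). HSPA8, a constitutive cytosolic chaperone, ran the other way at 12331 and 12783 FPKM in resistant and 3159 and 7677 FPKM in DMSO cells, on a row with a second name. What set DMSO A apart was not tested.

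**Figure D3:**
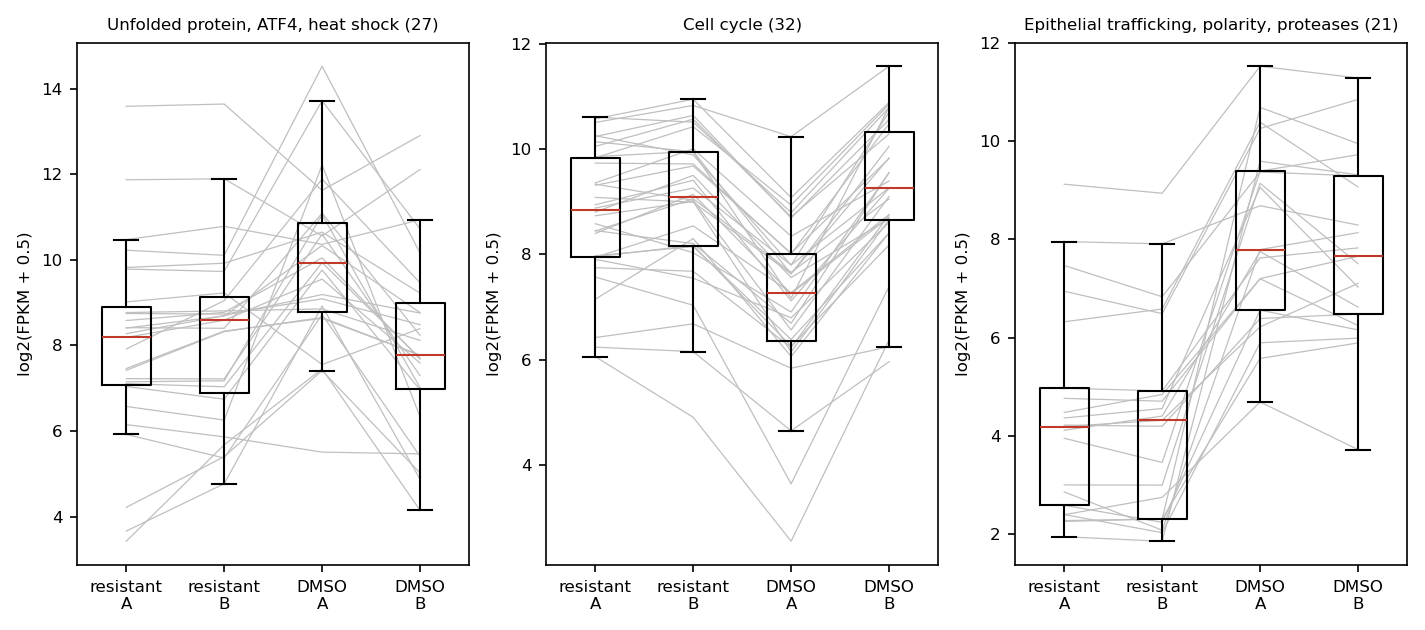
Level of each tested member, log2(FPKM + 0.5), in the 4 libraries for 3 gene lists, with a grey line per gene and boxes for the quartiles (red bar, median; whiskers to the last point within 1.5 box lengths). The stress list peaks in DMSO A, the cell cycle list dips there, and the epithelial list lies lower in resistant A and B than in either DMSO library.

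The epithelial lists did not depend on the DMSO library in this way. Against DMSO A and DMSO B alone, 6 and 5 of 9 adherens junction genes, 9 and 8 of 13 tight junction genes and 10 and 9 of 16 desmosome and hemidesmosome genes were at least 2-fold lower. For the 9 EMT transcription factors these counts were 6 and 3 higher. For the 9 cancer testis genes they were 5 and 5 higher.

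**Figure D4:**
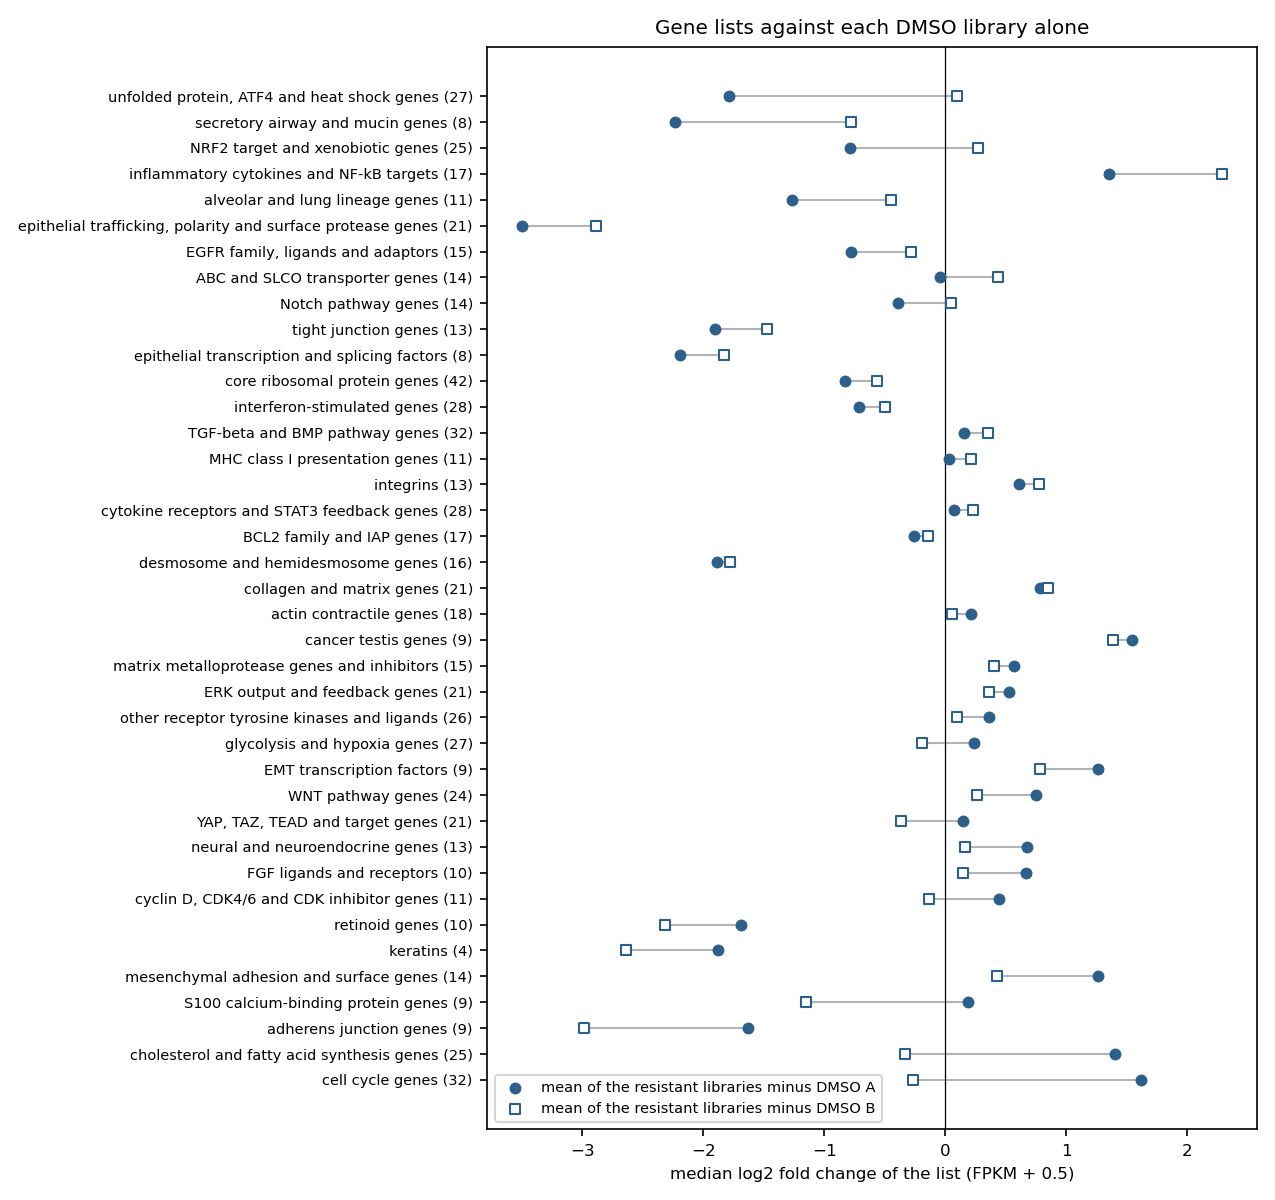
Median log2 fold change of each list's tested members (number in brackets) against DMSO A alone (filled circles) and DMSO B alone (open squares), ordered by the gap. Medians of cell cycle and of cholesterol and fatty acid synthesis genes lie on opposite sides of 0 for the 2 libraries, while the epithelial lists stay below −1 for both.

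None of the genes named next was called. Core ribosomal protein genes were lower together, with 40 of 42 fold changes negative, a median of −0.69, and 10 members at least 2-fold lower without overlap. RPS6, a protein of the small subunit, measured 11249 and 10219.7 FPKM in resistant and 23781 and 21232 FPKM in DMSO cells. RPS16 and RPL14 had positive fold changes of 0.41 and 0.44. Of 24 tested WNT pathway genes, 7 were at least 2-fold higher and 3 lower without overlap. WNT5B, a ligand of the branch that does not use beta-catenin, measured 33.8 and 38.0 FPKM in resistant and 5.86 and 5.39 FPKM in DMSO cells (adjusted p = 0.0729), while its relative WNT5A measured 1.55 and 7.61 FPKM in resistant and 30.0 and 56.8 FPKM in DMSO cells. Among 32 tested TGF-beta and BMP pathway genes, GREM1, which traps BMPs, measured 4565 and 3180.4 FPKM in resistant and 588 and 1148 FPKM in DMSO cells (adjusted p = 0.116). INHBB, an activin subunit, had a log2 fold change of −3.36 (adjusted p = 0.0741).

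Among 17 tested BCL2 family and IAP genes, BIK, a killer protein of the BH3 kind, measured 5.51 and 9.18 FPKM in resistant and 67.1 and 45.4 FPKM in DMSO cells (adjusted p = 0.0772). BCL2L11, the BIM gene through which EGFR inhibitors kill, measured 86.9 and 77.6 FPKM in resistant and 73.3 and 75.2 FPKM in DMSO cells, with a log2 fold change of 0.14. CYP1B1, a detoxifying enzyme, measured 738 and 495 FPKM in resistant and 125 and 44.2 FPKM in DMSO cells (adjusted p = 0.112). ABCG2, a drug pump that carries gefitinib, measured 75.2 and 64.9 FPKM in resistant and 15.8 and 26.1 FPKM in DMSO cells (adjusted p = 0.134). NKX2-1, the lung lineage factor, on a row with a second name, measured 30.3 and 21.9 FPKM in resistant and 121 and 124 FPKM in DMSO cells (adjusted p = 0.0729).

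Markers of other cell types were listed at 0 in part, and such a 0 is not proof of absence. Of 15 immune cell markers 9 were listed at 0 in all 4 libraries and 2 were tested, and the list summed to 367 and 448 FPKM in the resistant libraries, against 1198 and 371 FPKM in the DMSO libraries. The 2 tested were CD68, which overlapped between the groups (log2 fold change −0.56), and CSF1R, lower without overlap (−2.36). Neither was called. Of 12 fibroblast markers 6 were at 0 in all 4 libraries and 3 were tested, with a median log2 fold change of −0.14. The list summed to 1333 and 1627 FPKM in resistant cells, against 1073 and 988 FPKM in DMSO cells. The resistant sums include the row that joins PDGFRA with FIP1L1, listed at 0 in DMSO, so they do not measure the tested markers. Of the 3 tested, the row that names PDGFRB with a second gene was higher without overlap. It measured 21.9 and 26.2 FPKM in resistant and 2.57 and 0.764 FPKM in DMSO cells, without a call. COL1A1 and FBLN1 had log2 fold changes of −0.14 and −0.16. Of the 9 endothelial markers found, 4 were at 0 in all libraries and 2 were tested, and the list summed to 43.9 and 68.9 FPKM in resistant cells, against 30.3 and 67.8 FPKM in DMSO cells. Both tested fold changes were positive (median 0.95), 1 of them at least 2-fold without overlap, and neither was called.

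The changes in HCC4006 were set against those of HCC827, the other line made resistant in the same way, by an interaction test in limma over all 8 libraries and 14642 rows. The change differed between the lines in 212 rows (1.45%), 70 with a higher change in HCC4006 (0.478%) and 142 with a lower one (0.97%). Of the 71 rows that fell in HCC4006, 65 could be tested, and the difference was called for 44. Since rows were picked by their HCC4006 change, that count is a description. In HCC827 itself the 65 rows had a median log2 fold change of 0.07, and 51 lay within 1 of 0. CDH1 measured 1804 and 1132 FPKM in resistant and 1325 and 1081 FPKM in DMSO HCC827 cells (difference of log2 changes −8.61, adjusted p = 0.000326). WFDC2 ran in opposite directions, with 851 and 1267 FPKM in resistant and 31.4 and 14.1 FPKM in DMSO HCC827 cells (difference −11.82, adjusted p = 0.000326). DSP measured 71.8 and 71.9 FPKM in resistant and 200.5 and 198 FPKM in DMSO HCC827 cells, a smaller negative change than in HCC4006 (difference −4.08, adjusted p = 0.00657). ZEB1, not called in HCC4006 alone, differed between the lines (3.49, adjusted p = 0.0409), with 5.72 and 5.47 FPKM in resistant and 5.60 and 7.63 FPKM in DMSO HCC827 cells. Of the 17 rows that rose, 10 had a 0 in some HCC827 library and 7 could be tested. CLU and KIAA1644 were called as different, at 6.27 and 6.27. FGFR1 and VIM were not called as different (1.87, adjusted p = 0.252, and −0.19, adjusted p = 0.893). The interaction count fell to between 21 and 94 without any library but HCC4006 DMSO B, and was 1193 without that one.

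**Figure D5:**
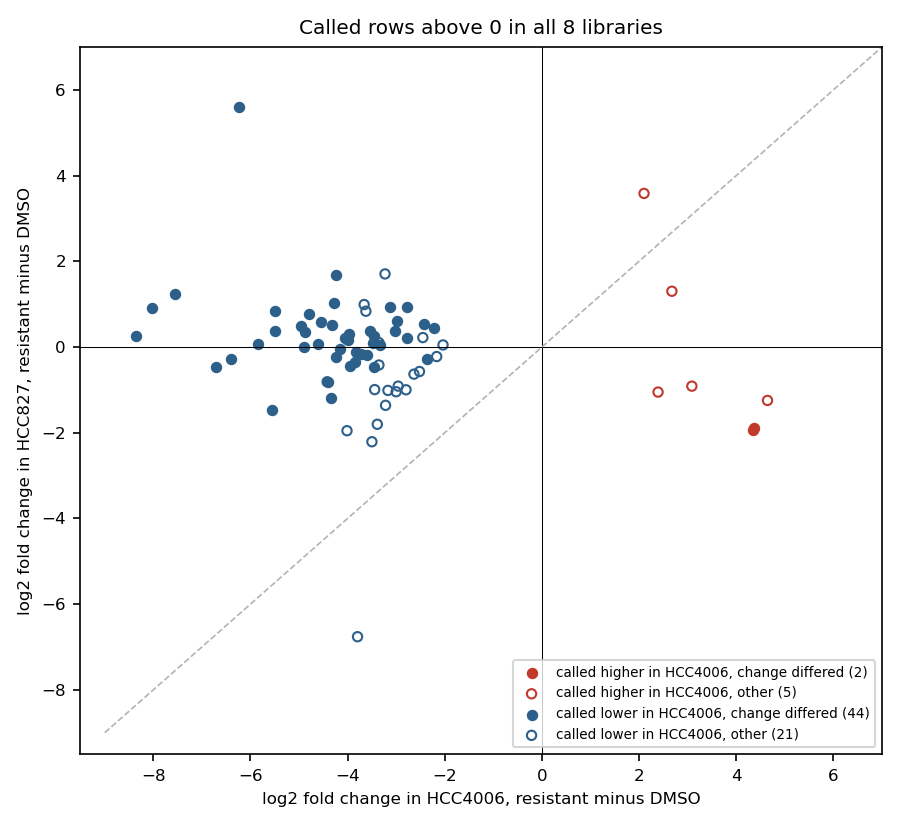
Log2 fold change (resistant minus DMSO) in HCC4006 (x axis) and in HCC827 (y axis) for called rows above 0 in all 8 libraries, filled where the change differed between the lines. The called-lower rows (blue) spread from −8.36 to −2.04 along x and mostly lie within 1 of 0 along y, far from the dashed line of equal change.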

How the data were processed

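Per the labels' protocols, RNA came from a miRNeasy extraction and polyadenylated RNA went into TruSeq RNA v2 libraries, which do not mark strand. The authors deposited gene-level FPKM in 1 table per line. Build hg19, Cuffdiff, Cufflinks 1.3.0 and TopHat 1.4.1 are named, per the submitters' processing notes, while annotation and options are not given in these sources. Column letters A and B were not tied to the labels' replicate numbers. There were 0 other per-sample columns.

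Values were analysed as log2(FPKM + 0.5), which understates changes of low genes, for rows above 0 in all 4 HCC4006 libraries with a mean of at least 0.5 FPKM. Tests used limma 3.58.1 in R 4.3.3 (lmFit, eBayes with trend), with Benjamini-Hochberg adjustment over all rows of a fit. They were tried on simulated data that gave both groups the same spread. That trial does not cover the unequal spread of these libraries. The lines were compared by an interaction contrast over 8 libraries. Lists (39 for pathways, 4 for cell type markers) gave 977 of 984 members found on the gene's own chromosome. Of 973 distinct list rows, 671 were tested. A descriptive rule counted rows at least 2-fold apart without overlap.

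Genes named were all rows called higher, the 25 with the largest called falls, called list members, the 3 members with the largest absolute fold change in each list with a mean of at least 10 FPKM, 12 genes of the FGF, EGFR and EMT pathways, and list members at 0. Other list members are named as chosen after their values were seen. The members and lists were chosen with earlier results of these data known. A called-lower row of chromosome Y is counted but not described, and some other genes are not reported here.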

Additional observations from a re-analysis of the deposited data

Results flagged for a closer look

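The change between resistant and DMSO cells differed between HCC4006 and HCC827 by the limma interaction test (adjusted p below 0.05) for 41 named genes. Values are the log2 change in HCC4006 minus that in HCC827. Most named genes were picked by their HCC4006 change, which is part of this test, so the count is a description. Over all 14642 rows of the test, 1.45% were called. The most negative differences belonged to WFDC2 (−11.82), AGR2 (−10.32), RAB25 (−8.96), AP1M2 (−8.78) and CDH1 (−8.61). In resistant HCC827 cells RAB25 measured 654 and 934 FPKM, against 535 and 319.9 FPKM in DMSO HCC827 cells. Adhesion and junction genes gave CDH3 −6.24, DSP −4.08, CLDN7 −4.67, CRB3 −4.83, JUP −3.37, EPCAM −3.42, MARVELD2 −3.58, TJP3 −6.28, ITGB6 −4.90 and ITGB4 −2.98. Genes of trafficking, proteases, splicing and keratins gave ST14 −5.93, C1orf106 −5.87, MAL2 −3.49, CDS1 −3.57, EPS8L2 −2.08, SH2D3A −3.73, MAP7 −3.51, ESRP2 −3.40 and KRT19 −3.92. Others with a negative difference were MYO1D −6.12, PTAFR −6.34, UCA1 −5.46, AC117494.1 with hsa-mir-492 −5.23, DENND1C −5.56, EPHA1 −5.13, CXCL16 −3.14, ERBB3 −4.11, GRB7 −4.63, BIK −4.68, RARRES3 −5.92 and STRA6 −6.48. Positive differences belonged to IL7R (6.59), KIAA1644 (6.27), CLU (6.27), TNFRSF9 (4.95) and ZEB1 (3.49). IL7R measured 13.2 and 8.61 FPKM in resistant and 36.3 and 23.6 FPKM in DMSO HCC827 cells, the opposite direction to HCC4006. The lines came in separate tables, so each change was taken within its own table. Why the lines differ was not tested.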

How the results depend on the processing

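Depth is unknown, and 2 libraries a group with unequal spread set the limits. Rows called higher and lower, 17 and 71 as reported, numbered 10 and 57 with a pseudocount of 0.1, 11 and 56 with a pseudocount of 1 or with quantile normalization, 11 and 55 with a robust fit, 4 and 19 with no minimum on the mean, 45 and 203 with all 8 libraries in the fit, and 33 and 100 over rows with 1 name and an unshared locus. With rows at 0 kept they were 1267 and 593, since a group at 0 has no spread. Whether columns with the same letter are paired is unknown. The A minus B deviations of resistant and DMSO libraries correlated at −0.08 in HCC4006 and at 0.22 in HCC827. A replicate block by letter gave 94 and 217. Leaving out 1 library gave 0 to 2891 higher and 4 to 3498 lower, the low ends without a resistant library, where 270 and 333 rows were higher at an unadjusted p below 0.05. Rows at least 2-fold apart without overlap, 1121 higher and 1517 lower as reported, numbered 461 and 813 over unshared rows and 2662 higher with rows at 0 kept. Leaving out 1 library gave 1214 to 2169 higher and 1549 to 2756 lower. The interaction count of 212 ranged from 21 to 1193 without 1 library. Signs turned for the following uncalled genes, and the cause was not tested beyond the library left out. EGFR turned to 0.00111 with quantile normalization. With 1 library left out, the range was −0.50 to 0.20 for EGFR, −0.28 to 2.59 for the row of FGF5 and C4orf22, −4.51 to 0.47 for GDF15, −0.089 to 3.67 for E2F1, −5.80 to 0.084 for DDIT3, −1.52 to 0.40 for CD68, −0.35 to 0.84 for ESAM, −0.41 to 0.096 for FBLN1 and −0.54 to 0.25 for COL1A1. DMSO A left out gave the turned end for all but FBLN1.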

Other observations

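Median fold changes varied between stretches of the genome. Over 209 windows of 5 Mb (hg19) with at least 20 tested rows, the median log2 fold change of a window was −0.12, with 5th and 95th percentiles of −0.39 and 0.29. These windows hold only part of the 16484 tested rows. Whether their medians vary more than medians of so few rows would was not tested, and the windows named are the extremes. The lowest window was chromosome 12, 55000001 to 60000000, with a median of −0.72 and 5 of 58 rows positive, followed by its neighbour from 50000001 to 55000000 at −0.70 with 6 of 42 positive. In HCC827 these windows had medians of 0.08 and 0.08. DMSO A and B differed there by medians of 0.23 and −0.01, less than the difference between resistant and DMSO cells. Windows of chromosome 11, 45000001 to 50000000 and 1 to 5000000, had medians of −0.70 and −0.69, and chromosome 12, 110000001 to 115000000, had −0.68. In HCC827 these windows had medians of −0.30, 0.21 and −0.16. The highest windows of the nuclear genome lay on chromosome X, 130000001 to 135000000 (0.63), and chromosome 9, 110000001 to 115000000 (0.60). Their HCC827 medians were −0.11 and −0.35. The 21 rows of the mitochondrial genome had a median of 1.12, and resistant A minus resistant B had a median of −1.69 there.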
